A study of Mus musculus with 2 samples.

Results

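The G1 cyclins, their kinases, the transcription factor E2f1 and the proto-oncogene Myc were followed after stable knockdown of Mybbp1a in C2C12, a mouse myoblast line that can form muscle fibres in culture. The set held 10 genes: Ccnd1, Ccnd2, Ccnd3, Ccne1, Ccne2, Cdk2, Cdk4, Cdk6, E2f1 and Myc. They were found by the gene name of each non-control probe, which gave 20 of the 41174 probes on the array. Of the 10 genes, 3 had 1 probe, 4 had 2 and 3 had 3. A knockdown hairpin (shRNA) targeting Mybbp1a, or else a control hairpin, was expressed from stable integration, and the clones of each kind were mixed and grown below confluence in medium with 20% fetal bovine serum. The labels give the line as derived from leg muscle of adult C3H mice. Both groups therefore carried a hairpin and were undifferentiated, proliferating cultures. RNA of the knockdown cells was labelled with Cy5 and RNA of the control cells with Cy3 on each of 2 two-colour arrays, described as biological replicates, with no dye swap. Nothing in the labels tells whether the replicates were separate infections or cultures, so the p-values cover the spread between these arrays only, and that spread may be technical.

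D-type cyclins accumulate when growth factors are present and activate Cdk4 and Cdk6, which begin to phosphorylate the retinoblastoma protein. This releases E2f factors, which transcribe E-type cyclins and the replication machinery, and cyclin E with Cdk2 then carries the cell past the commitment point into S phase. Myc is induced by serum and drives both arms, and myoblasts must leave this cycle in G1 before they fuse, which makes these genes a readout of the balance between proliferation and differentiation.

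The array carried 60-base oligonucleotides, and for several of the 10 genes the answer depended on which stretch of the transcript was probed. The probes on which the account below turns are shown 5′ to 3′ as the files give them, for Ccne2, Cdk4, Cdk2 and Cdk6 because these probes were below 0 on both arrays, and for Myc and Ccnd2 because they read near 0. Each of these has at least 1 reading frame without a stop codon.
Ccne2 A_52_P58560: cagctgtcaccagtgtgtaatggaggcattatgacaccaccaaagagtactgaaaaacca
Cdk4 A_51_P437027: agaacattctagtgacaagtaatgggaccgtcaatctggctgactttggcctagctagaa
Cdk2 A_52_P651298: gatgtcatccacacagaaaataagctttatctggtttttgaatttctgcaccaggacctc
Cdk6 A_52_P417489: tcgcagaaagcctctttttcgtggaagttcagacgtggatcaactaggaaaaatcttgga
Myc A_52_P278549: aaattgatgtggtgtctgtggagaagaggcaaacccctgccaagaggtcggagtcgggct
Ccnd2 A_51_P433228: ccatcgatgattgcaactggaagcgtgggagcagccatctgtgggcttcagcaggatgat

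The pair of E2f1 probes disagreed in sign, and the first 30 of the 60 bases of each are shown for that reason.
E2f1 A_52_P587611: cgggaatgaaggtgaacacatctgtatgtg
E2f1 A_51_P120636: ctttaatggagcgtttatttatttatcgag

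Ratios below are log2 values, knockdown relative to control, after loess within each array, and are given for array 1, then array 2, then as the mean ± SD over the 2 arrays, unless a level is named. A level is the normalized log2 intensity of 1 channel, and levels are compared only within a probe. All 20 probes were well above background in both channels on both arrays and none was saturated. Mybbp1a itself read -1.64 and -1.91, so the knockdown was visible on both arrays. Each array lay on a slide of its own, which ties any slide effect to the replicate. Over the 27005 probes tested, the SD of the log2 ratios was 0.30 on array 1 and 0.41 on array 2, and the median spot signal was 329 and 449 in Cy5 and 159 and 184 in Cy3.

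In limma the 20 probes had adjusted p-values from 0.159 to 0.968, so none was called at 0.05, and neither was any other tested probe (0% higher and 0% lower). The fit rested on 1 residual degree of freedom. At an unadjusted limma p under 0.05, 8 of the 20 probes were lower and 0 higher, against 9.08% of all tested probes lower and 12.7% higher. Both arrays put 13 probes below 0, 4 above 0 and 3 apart in sign, where over all tested probes 32.1% were below and 37.9% above 0 on both. The unadjusted calls covered Ccne1, Ccne2, Cdk2, Cdk4, Cdk6 and E2f1, with 1 of 2, 2 of 2, 2 of 2, 1 of 1, 1 of 3 and 1 of 2 probes. Probes of 1 gene share their RNA and are not independent. In the limma fit over genes, which takes the brightest probe of each, 2 of the 10 genes were lower (Ccne2 and Cdk4) and 0 higher. By the same unadjusted rule 7.49% of all tested genes were lower and 13.4% higher. Every probe of 5 genes (Ccnd1, Ccne1, Ccne2, Cdk2 and Cdk4) was below 0 on both arrays, and the probe of 1 gene, Ccnd3, was above 0 on both. The directions depended on the normalization: with median centring in place of loess, 8 of the 20 probes changed sign, while the median of all tested probes moved to 0.19.

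**Figure D1:**
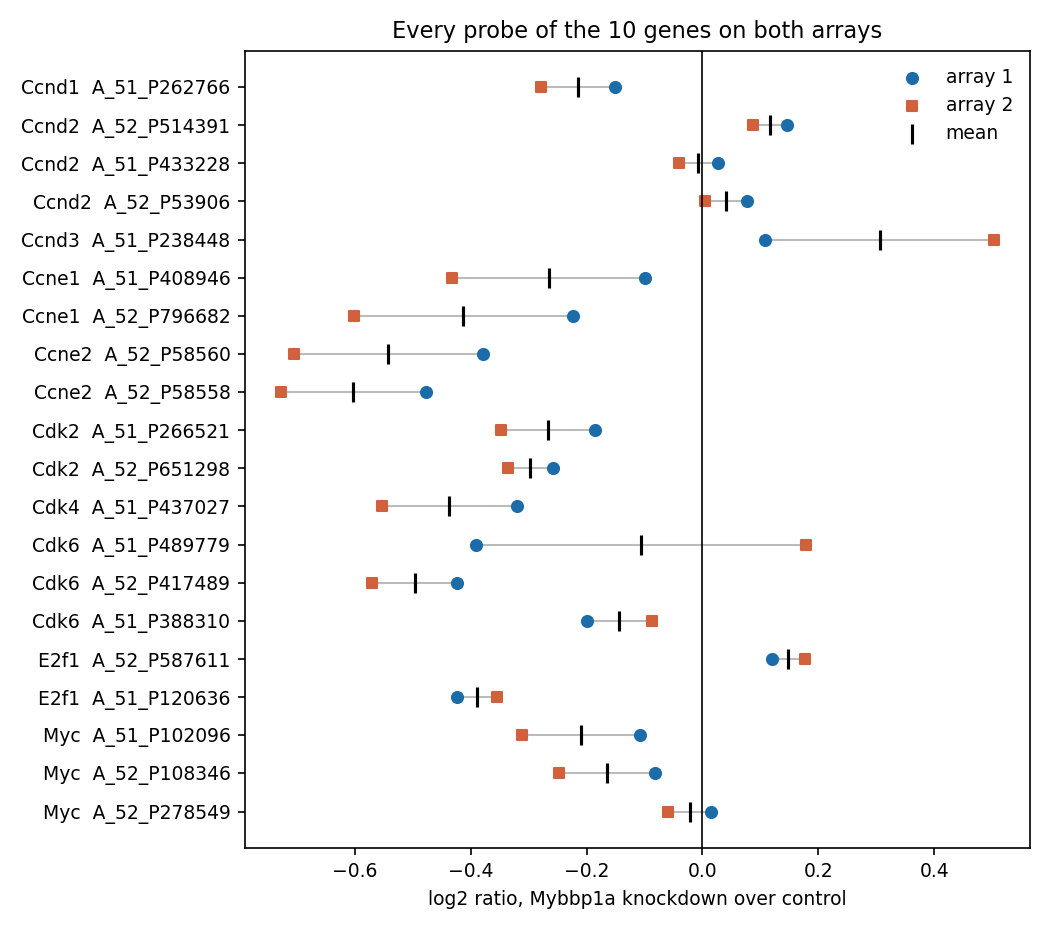
Log2 ratio of knockdown over control (horizontal axis) for every probe of the 10 genes (vertical axis), with circles for array 1, squares for array 2 and a bar for their mean. Both Ccne2 probes lie lowest, at -0.54 and -0.60, Ccnd3 highest at 0.31, and the E2f1 probes on opposite sides of 0.

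The D cyclins, the growth-factor sensors of the set, did not share a direction. Cyclin D1 (Ccnd1), measured by 1 probe printed in 10 spots at chromosome 7, 144739658 to 144739717 (mouse build mm8, minus strand), read -0.15 and -0.28, a mean of -0.22 ± 0.09 (SD, n = 2). Its level was 14.05 in the knockdown against 14.21 in the control channel on array 1, and 14.29 against 14.57 on array 2. The knockdown was the dimmer channel on both arrays, by 1.16-fold on average, with an adjusted p of 0.274 in limma. Median centring put Ccnd1 at 0.15.

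Cyclin D2 (Ccnd2) was measured at 3 places spread over its gene on chromosome 6, with gaps of 9433 and 9449 bp between the probes. The means were 0.12 ± 0.04 for A_52_P514391, -0.01 ± 0.05 for A_51_P433228 and 0.04 ± 0.05 for A_52_P53906. The second probe stood at -0.12 relative to the first, the widest gap of the 3, and the limma adjusted p ran from 0.476 to 0.968. No change of Ccnd2 was detectable, and with a limma standard error of about 0.085 each of these means is within 2 standard errors of 0.

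Cyclin D3 (Ccnd3), the D cyclin known to accumulate as myoblasts differentiate, read 0.11 and 0.50, a mean of 0.31 ± 0.28 (SD, n = 2). The knockdown level was 12.98 against 12.87 in the control on array 1, and 12.58 against 12.08 on array 2. The knockdown was the brighter channel on both arrays but by unequal amounts, and the limma adjusted p was 0.284. Of the 10 genes it was the only 1 whose probes all lay above 0 on both arrays. Under median centring its mean was 0.60, the 1 member value that passed the test under any setting run (limma adjusted p 0.0402). That setting called 4358 of the 27005 tested probes higher, and the median of all tested probes was 0.19. Relative to that median Ccnd3 stood at 0.42.

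Of the kinase partners of the D cyclins, Cdk4 was below 0 on both arrays and the probes of Cdk6 were not of one kind. Cdk4 had 1 probe, at chromosome 10, 126467860 to 126467919, and read -0.32 and -0.55 (mean -0.44 ± 0.16; SD, n = 2), which is 1.35-fold lower. The knockdown level was 14.08 against 14.40 in the control on array 1, and 13.94 against 14.49 on array 2. The limma standard error was 0.10 and the adjusted p 0.169, and 3.6% of all tested probes had a lower mean. Under median centring Cdk4 stood at -0.07, or -0.26 relative to the median of all tested probes.

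For Cdk6, the other partner of the D cyclins, the 3 probes gave different answers. The probe A_52_P417489, a 60-base sequence that the file places across 42285 bp of chromosome 5 (3479226 to 3521510), read -0.42 and -0.57, a mean of -0.50 ± 0.10 (SD, n = 2). Its knockdown levels were 9.84 and 9.72 against 10.27 and 10.29 in the control. A_51_P388310, placed 6164 bp beyond it, read -0.20 and -0.09. A_51_P489779, a further 7558 bp on and assigned to a cDNA clone that the file describes as unclassifiable, read -0.39 and 0.18, so that its arrays pointed apart. Limma adjusted p-values of the 3 were 0.159, 0.41 and 0.75, in that order. The first and last probes differed by 0.03 on array 1 and by 0.75 on array 2, and this difference was not tested.

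Of the E cyclins, which activate Cdk2 at the entry to S phase, Ccne2 held the lowest values of the set. Ccne2 was measured by 2 probes 56 bp apart on chromosome 4 (11130171 to 11130230 and 11130287 to 11130346). The first, printed above, read -0.38 and -0.71, a mean of -0.54 ± 0.23 (SD, n = 2). The second, A_52_P58558, read -0.48 and -0.73 (mean -0.60 ± 0.18), which is 1.52-fold lower. Knockdown levels of this second probe were 10.93 and 10.62 against 11.41 and 11.35 in the control. Limma adjusted p-values were 0.165 and 0.159, and 1.8% and 1.2% of all tested probes had lower means. Both probes also stayed below 0 under median centring, at -0.28 and -0.34.

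Ccne1 had 2 probes to which the files give the same 24 bp of chromosome 7 (37806678 to 37806701), shorter than the probes themselves. A_51_P408946 read -0.10 and -0.43 (mean -0.27 ± 0.24), and the dimmer A_52_P796682 read -0.22 and -0.60 (mean -0.41 ± 0.27; SD, n = 2). Both were below 0 on each array, with array 2 the lower, and their limma adjusted p-values were 0.299 and 0.201. Median centring set them apart, at 0.040 and -0.19.

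Cdk2, the kinase that the E cyclins activate, gave nearly the same ratio at 2 places 5543 bp apart on chromosome 10. A_51_P266521 read -0.19 and -0.35 (mean -0.27 ± 0.12) and A_52_P651298 read -0.26 and -0.34 (mean -0.30 ± 0.06; SD, n = 2). Between the probes the means differed by 0.03. Limma gave adjusted p-values of 0.229 and 0.191.

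E2f1, the activator E2f that the retinoblastoma protein restrains, read in opposite directions at its 2 probes, which lie 202 bp apart on chromosome 2 of mm8 (154251709 to 154251768, and 154251447 to 154251506, minus strand). A_52_P587611, the brighter, read 0.12 and 0.18, a mean of 0.15 ± 0.04 (SD, n = 2). A_51_P120636, nearer the 3′ end and printed in 10 spots, read -0.42 and -0.36 (mean -0.39 ± 0.05), which is 1.31-fold lower. Knockdown levels of this second probe were 9.63 and 9.46 against 10.05 and 9.81 in the control. The difference between the probes was -0.54 on array 1 and -0.53 on array 2, against an SD between arrays of 0.04 and 0.05 for the probes themselves. Limma adjusted p-values were 0.382 and 0.165, and the difference itself was not tested. No single direction is given for E2f1.

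Repeated spots show how far the print itself limits these values. The 10 spots of the E2f1 probe A_51_P120636 ran from -0.53 to -0.31 on array 1 and from -0.42 to -0.29 on array 2, with every spot below 0. Those of Ccnd1 ran from -0.22 to -0.07 and from -0.35 to -0.21, again all below 0. The 10 Myc spots ran from -0.22 to 0.03 on array 1 and from -0.36 to -0.23 on array 2. Spots on 1 array share their RNA and are not replicates of the condition. The SD of single spots lay between 0.04 and 0.08. Between the arrays the SD was 0.09 for Ccnd1 and 0.14 for Myc, taken over array values that are each a mean of 10 spots. For E2f1 the SD between the arrays, 0.049, was no larger than that of its spots on array 1 (0.073) and close to that on array 2 (0.048).

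**Figure D2:**
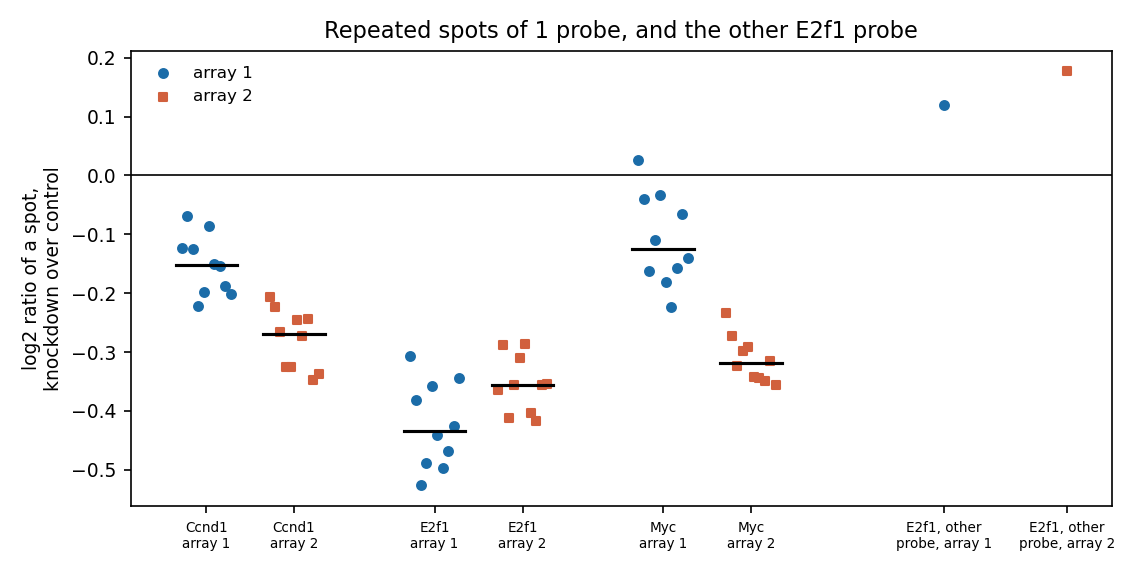
Log2 ratio of each of the 10 repeated spots of 1 probe of Ccnd1, E2f1 and Myc on arrays 1 and 2 (bars, median), and the single spot of the other E2f1 probe. Every E2f1 spot of the repeated probe lies below -0.28, while the other E2f1 probe lies at 0.12 and 0.18.

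Myc, the serum-induced transcription factor that promotes growth and cell cycle entry, read slightly below 0 towards the 3′ end of its transcript and near 0 further upstream. On chromosome 15 of mm8, A_51_P102096 (61819627 to 61819687) read -0.11 and -0.31, a mean of -0.21 ± 0.14 (SD, n = 2). A_52_P108346, which lies 39 bp before it, read -0.08 and -0.25 (mean -0.17 ± 0.12). A_52_P278549, a further 432 bp upstream, read 0.015 and -0.06 (mean -0.02 ± 0.05). Array 2 was the lower at all 3 probes. Limma adjusted p-values were 0.311, 0.38 and 0.905, and median centring put the probes at 0.097, 0.13 and 0.21, so no direction is given for Myc.

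Feature Extraction's deposited p-value of a single array, which rests on its error model and not on replicates, was under 0.05 on both arrays for 4 of the 20 probes, all lower: both Ccne2 probes, A_52_P417489 of Cdk6 and A_51_P120636 of E2f1. Over all tested probes 3.12% were lower and 4.43% higher by the same rule.

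Taking the brightest probe of each gene, 6 of the 10 genes were below 0 on both arrays and 3 above, against 29.4% and 40.6% of all 18068 tested genes. Their median was -0.21 (-0.13 on array 1 and -0.30 on array 2), beside 0.03 for all tested genes, with E2f1 and Cdk6 entering through the brighter probes that read 0.15 and -0.11. Median centring turned this median to 0.12, with all tested genes at 0.21. By that setting 4 of the 10 genes lay below the median of all genes on both arrays and 3 above it, where 37.2% of all genes lay below.

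**Figure D3:**
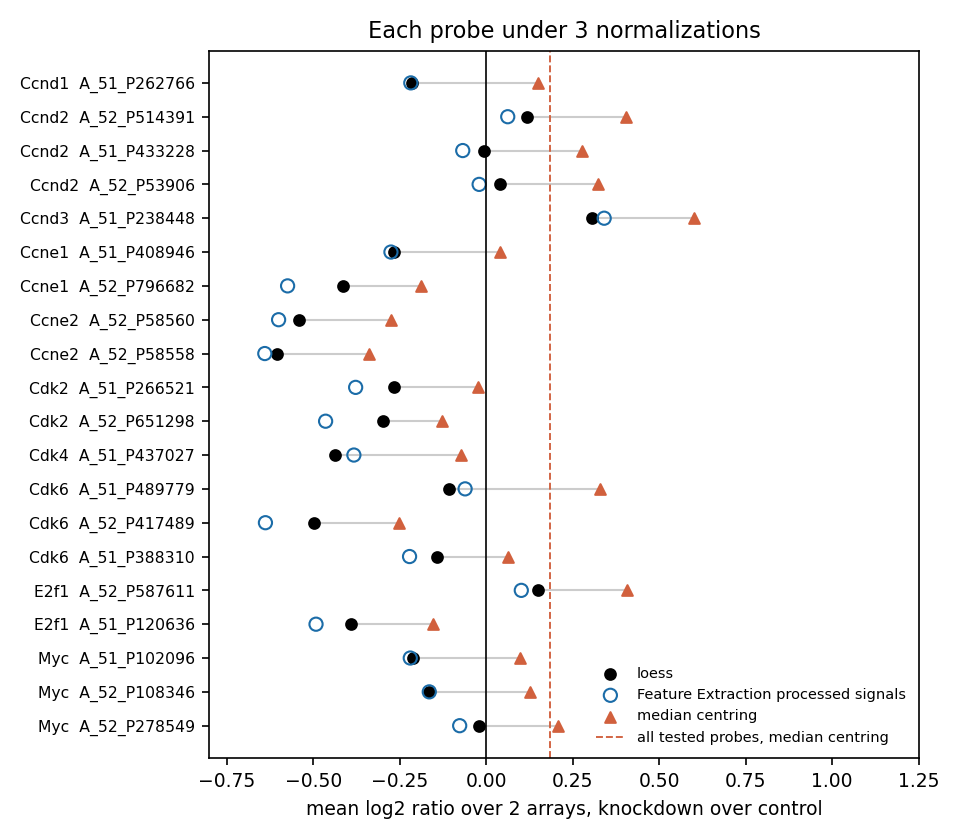
Mean log2 ratio over 2 arrays for each probe after loess (filled circles), from Feature Extraction's processed signals (open circles) and after median centring (triangles), with a dashed line at the median of all tested probes under median centring. Ccne2, Cdk2, Cdk4, Cdk6 A_52_P417489, the repeated E2f1 probe and 1 Ccne1 probe stay below 0 under all 3, and Ccnd1 and Myc cross 0.

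Other genes of the pathway were read from lists that hold the partners, brakes and targets of these 10. None of their genes passed an adjusted p of 0.05, so the counts below are those at an unadjusted limma p under 0.05 over genes, where 7.49% of all tested genes were lower and 13.4% higher. Of the 9 other E2f and DP factors, which bind DNA as dimers, 2 were lower and 0 higher, with a median of -0.09 (0.21 under median centring). E2f8, a repressor of late S phase, read -0.29 and -0.39, and Tfdp1, the main dimer partner, -0.27 and -0.40. E2f2, another activator, read 0.096 and 0.88, so its mean of 0.49 ± 0.56 (SD, n = 2) rested on array 2.

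The Cdk inhibitors and pocket proteins were above 0 on both arrays for 4 of the 8 genes tested, against 40.6% of all tested genes. The other 4 (Cdkn1a, Cdkn2d, Rb1 and Rbl1) differed in sign between the arrays. Of 10 Cdk inhibitors and pocket proteins, 8 were tested, 2 were higher and 0 lower, and the median was 0.23 (0.53 under median centring). Cdkn1c (p57) read 0.76 and 1.18, and Cdkn1b (p27), which blocks cyclin E with Cdk2, read 0.46 and 0.70, with limma adjusted p-values of 0.178 and 0.182. Cdkn2c (p18), an inhibitor of Cdk4 and Cdk6, read 0.12 and 0.40. Cdkn2a and Cdkn2b were not tested because neither channel was well above background on both arrays.

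Among 17 tested genes of Cdk activation and cyclin turnover, 5 were lower and 1 higher, with a median of -0.21 that median centring turned to 0.14. Cdc25a, the phosphatase that activates Cdk2, read -0.37 and -0.63 (mean -0.50 ± 0.19; SD, n = 2). Cdk7, the kinase that activates other Cdks, read -0.20 and -0.52, and the phosphatase Cdc25b -0.63 and -0.08.

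In the Myc network of 12 tested genes, 4 were higher and 0 lower, with a median of 0.13 (0.35 under median centring). Those with the largest means were Mxd4 (0.67 and 0.62) and Mxi1 (0.41 and 0.83), which compete with Myc for its partner Max, and the Myc relative Mycl (1.23 and 0.41). Limma adjusted p-values of the 3 ran from 0.178 to 0.21.

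Targets of E2f and of Myc were mostly below 0. Of 20 E2f targets of DNA replication, 13 were lower and 0 higher, and the median was -0.38. Below 0 on both arrays were 19 of them, against 29.4% of all tested genes. Mcm10, which helps to start replication forks, read -0.65 and -0.60, the kinase Cdc7 -0.67 and -0.40, and the licensing factor Cdt1 -0.64 and -0.42. Of 15 Myc targets, 10 were lower and 1 higher. Their median was -0.49 (array 1 -0.29, array 2 -0.76). Dkc1, which modifies ribosomal RNA, read -0.53 and -1.19 and the spermidine synthase gene Srm -0.34 and -1.01, whereas Ldha, lactate dehydrogenase A, read 0.66 and 1.01. Under median centring the medians were 0.0033 and -0.07, or -0.21 and -0.29 relative to the median of all tested genes.

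The 6 proliferation markers had 1 lower and 0 higher, and 5 of them were below 0 on both arrays, against 29.4% of all tested genes. Ccnb1 read -0.32 and -0.48, Plk1 -0.32 and -0.17, Mki67 -0.36 and -0.08, Top2a -0.21 and -0.16, and Bub1 -0.20 and -0.07. Aurkb read -0.17 and 0.03. Their median of -0.20 became 0.17 under median centring. In such bulk RNA, fewer cycling cells and less RNA per cell cannot be told apart.

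**Figure D4:**
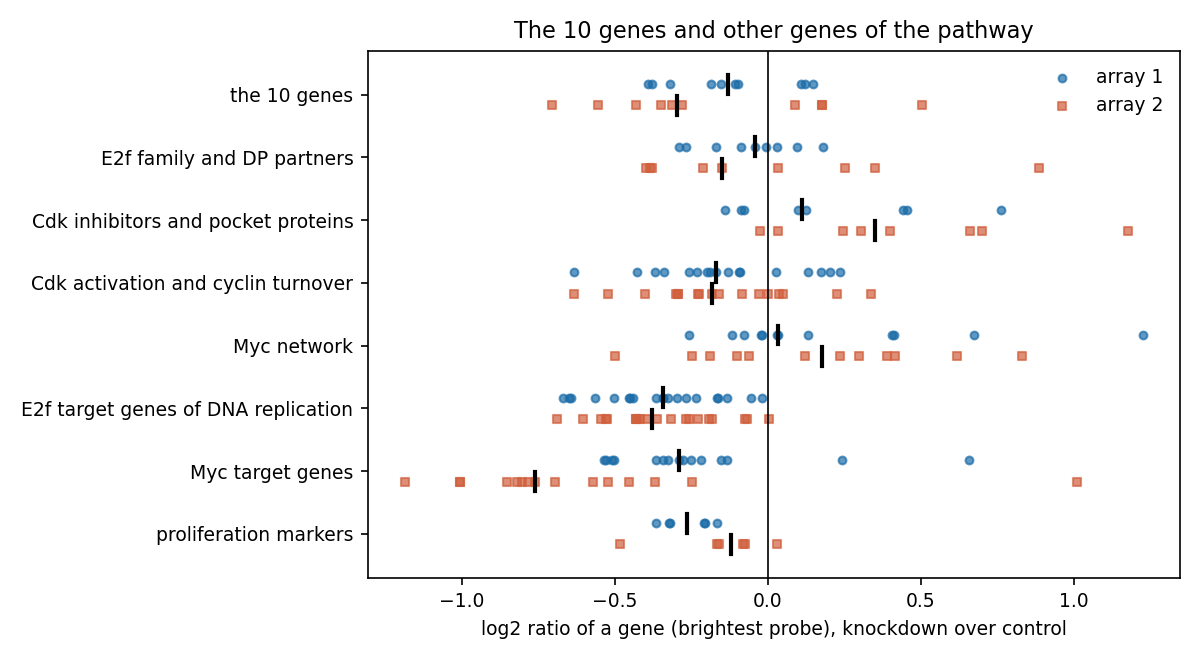
Log2 ratio of each tested gene (brightest probe) on array 1 (circles) and array 2 (squares) for the 10 genes and 7 lists of related genes, with bars at the medians. The E2f and Myc targets lie mostly left of 0, with medians of -0.38 and -0.49 over both arrays. The Cdk inhibitors and pocket proteins have a median of 0.23. Of these, 4 of 8 genes lie right of 0 on both arrays, against 40.6% of all tested genes.

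Markers of the cell type were checked beside these values. All 9 myoblast markers were measured, with a median ratio of 0.13, and 4 were above and 2 below 0 on both arrays. Of all tested genes 40.6% were above and 29.4% below, so the myoblast count above 0 is near that share. The same shares stand beside the counts of the other marker lists below. Their normalized intensities, on the linear scale, summed to 151000 and 133000 in the knockdown and 157000 and 131000 in the control. Such sums, here and below, run over different probes and are carried by the brightest. The knockdown signal above background was 146139 and 134026 for Chrna1, but 368 and 575 for Pax7. Of the 10 fibroblast and smooth muscle markers 9 were tested and 7 were above and 1 below 0 on both arrays, with sums of 354000 and 404000 in the knockdown against 243000 and 188000 in the control. The collagen genes Col1a1 and Col3a1 read 1.71 and 4.60, and 0.75 and 1.82, and the growth factor receptor Pdgfra 0.98 and 1.77, with limma adjusted p-values from 0.182 to 0.197. The gene below 0 on both arrays was Acta2, a smooth muscle marker, at -0.12 and -0.27. Fap differed in sign, at 0.81 and -0.06. Thy1, which marks fibroblasts, was not well above background. The 6 markers of differentiated myotubes summed to 3030 and 2150 against 1880 on each control channel, with a median ratio of 0.39, and 4 were above and 1 below 0 on both arrays. Myog, the regulator that starts differentiation, read 0.79 and 0.51, and Tnnt1 1.27 and 0.61. Myh3 read 0.63 and 0.16, with a control channel well above background on neither array. Ckm read 0.036 and 5e-04, Mymk -0.016 and -0.042, and Acta1 1.19 and -0.40, so these markers did not share a direction. Of 6 leukocyte markers 4 were tested, with sums of 1140 and 1710 against 1080 and 1630, and of 4 endothelial markers 2, with sums of 486 and 427 against 321 and 313. Ptprc, Itgam, Pecam1 and Kdr, which define these cells, were not well above background. The part of the fibroblast and myotube markers in the ratios of the 10 genes was not tested.

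Sequence at annotated starts was available from RefSeq (GRCm38.p6, windows of 300 bases) for 6 of the 10 genes: Ccnd3, Ccne1, Cdk2, Cdk4, Cdk6 and E2f1. The Myc binding motif CACGTG, which reads the same on both strands, was found in 2 of the 6 genes, Cdk4 and Cdk6. Over all 27025 genes with a window 8.09% held it, and over all 32851 windows 7.15%. Cdk4 held 4 copies, and 8 windows (0.0244%) held 4 or more. An E2F motif (TTTCCCGC, TTTCGCGC, TTTGGCGC or TTTGCCGC, on either strand) was found in the Cdk2 window alone. Over all genes 2.6% held such a motif, and over all windows 2.26%. The 7 windows of these 6 genes lie at annotated starts, and whether each is the main start was not checked. The E2f1 window in particular may lie inside the gene and not at its main promoter. E2f1 is therefore not counted as lacking an E2F motif. A match describes the letters and is neither a site nor a cause. The 250 bases before the Cdk4 start, on the plus strand at chr10:127063285-127063534, are shown because Cdk4 read 1.35-fold lower and held the most copies of a motif, with CACGTG in capitals.
Cdk4 promoter: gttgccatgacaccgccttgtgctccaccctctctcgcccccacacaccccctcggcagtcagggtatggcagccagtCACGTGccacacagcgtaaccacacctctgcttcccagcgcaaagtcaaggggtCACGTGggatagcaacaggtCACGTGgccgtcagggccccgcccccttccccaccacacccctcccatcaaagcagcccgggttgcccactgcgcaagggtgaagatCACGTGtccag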

How the data were processed

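Per the file headers, probe coordinates were on mm8, and Agilent Feature Extraction 9.5.3.1 turned the scans into values. The deposited intensity values used were the mean and local background of each spot in both colours. The deposited log10 ratio, its p-value from a single-array error model and the processed intensity values had been dye-normalized, per the file headers. In the deposited value table, log2 values matched that ratio for 99.4% of probes within 0.001, with a median of 0 on each array.

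Signals were corrected by normexp (offset 50) and normalized by loess (span 0.3; control spots weight 0) in limma 3.58.1 under R 4.3.3. Spots with outlier flags were left out (154 and 237), and spots of a probe were averaged. A probe was kept where each array had 1 or both of its channels well above background, and was fitted with an intercept in limma (lmFit, eBayes, two-sided) and adjusted by Benjamini-Hochberg. The pathway lists used the brightest probe of each gene in a fit over genes. Genes were named through accession, symbol or synonym in a RefSeq table of GRCm38.p6. All 10 members were named, and of each other pathway list the 3 genes with the largest absolute mean among those with 1 sign on both arrays; Mybbp1a and any gene of a list of 6 or fewer could be named. Of the fibroblast list the same 3 are given. Acta2, and genes named as split in sign or as not tested, fall outside this rule and were named after their values were seen. The code was tested on simulated data. The number of arrays limits the precision, and an exact sign-flip test on 2 arrays cannot go below 0.5. The members and lists were chosen with earlier results of these data known.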

Additional observations from a re-analysis of the deposited data

How the results depend on the processing

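The results were recomputed with Feature Extraction's processed signals, median centring, a normexp offset of 16, no filter on dim probes, both channels above background, flagged spots kept, the deposited table, the mean over probes, 1 probe a gene in the fit, and 1 array at a time. Over all probes, median centring called 4358 higher and 120 lower at an adjusted p under 0.05 in limma, and 9346 and 830 unadjusted. Unadjusted, the deposited table gave 2188 higher of 24134 probes tested, and 1 probe a gene gave 1354 lower of 18068 genes. The main setting gave 3431 higher and 2453 lower of 27005 probes, so these counts rest on unequal numbers tested. Median centring gave, as genes below 0 on both arrays, above 0 on both and median, 1, 5 and 0.123 for the 10 genes, 0, 6 and 0.209 for E2f and DP factors, 3, 10 and 0.14 for Cdk activation, 1, 10 and 0.351 for the Myc network, 7, 7 and 0.00327 for E2f targets, 4, 2 and -0.0731 for Myc targets, and 0, 5 and 0.171 for proliferation markers. Under it 8 inhibitors and pocket proteins were above 0, with a median of 0.528. The processed signals and the deposited table each put 1 inhibitor below 0 and 2 genes of Cdk activation above. The median of that list was -0.195 with either, -0.187 with no filter and -0.164 as the mean over probes, and that of E2f targets was -0.354 in the deposited table and -0.309 as the mean over probes. The deposited table had 0 Myc targets above 0 on both arrays. It has 1165 and 2004 blank values and left 16702 genes, against 18068 in the main setting. Whether Ldha, at 0.60 in the processed signals, was lost to a blank was not checked. From 1 array alone the median ran from -0.296 to -0.13 for the 10 genes, -0.148 to -0.0436 for E2f and DP factors, 0.111 to 0.351 for inhibitors, -0.182 to -0.169 for Cdk activation, 0.0317 to 0.178 for the Myc network, -0.379 to -0.342 for E2f targets, -0.76 to -0.291 for Myc targets and -0.265 to -0.12 for proliferation markers.

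Median centring reversed Ccnd1 (0.15), 1 Ccnd2 probe (A_51_P433228, 0.278), 1 Ccne1 probe (0.0398), Cdk6 A_51_P489779 (0.329) and A_51_P388310 (0.0617), and Myc (0.0968, 0.126 and 0.209), and took Ccnd3 past the threshold (0.602, limma adjusted p 0.0402). The processed signals and the deposited table each gave Ccnd2 A_52_P53906 -0.0205. The single arrays reversed Ccnd2 A_51_P433228 (-0.0414 to 0.0261), Cdk6 A_51_P489779 (-0.391 to 0.178) and Myc A_52_P278549 (-0.0589 to 0.0149). Of the member probe values recomputed on both arrays, 129 kept their direction and side of the threshold. From 1 array, which gives no test, 37 kept their direction. The cause was not tested.

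No paired analysis was possible because both arrays belong to 1 group, and each already pairs knockdown with control. Slide as a block could not be fitted, since each slide holds 1 array. The 2 arrays and the 1 dye orientation limit every value: a dye bias left by normalization and an effect of the knockdown cannot be told apart.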
